A study of Mus musculus with 18 samples.

Results

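The comparison is between 21EX, the left ventricles of mice that had a running wheel for 21 days, and NP/Sed, those of sedentary mice, and it rests on 6 of the 18 arrays of the series: 21EX-1 to 21EX-3 and NP/Sed-1 to NP/Sed-3. The members were chosen by their labels, as all arrays of these 2 groups. All mice were wild-type C57Bl/6 females aged 3 to 4 months, and the NP/Sed mice were virgins in diestrus that also served as the controls for the pregnant groups. The other groups of 3 arrays were 7EX (7 days of running), MP and LP (mid and late pregnancy) and 0PP (just after birth). Each array was hybridised with RNA pooled in equal amounts from 2 to 3 hearts, so an n of 3 counts pools. The cycle stage of the running mice was not analysed here, and distance run was not analysed here.

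Voluntary running enlarges the mouse heart by physiological hypertrophy, in which cardiomyocytes grow without the scarring and pump failure seen under pressure overload. The left ventricle also holds endothelial cells, fibroblasts, pericytes and resident macrophages, and in the adult most dividing cells are of these types. Cells entering S phase load the Mcm2 to Mcm7 helicase on replication origins, and cells entering mitosis require Cdk1 with its small binding partners Cks1b and Cks2. In whole ventricle, more cells of a type and more RNA per cell cannot be told apart.

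Values are log2 RMA values per probe set, and differences are 21EX minus NP/Sed on the log2 scale with their standard errors. A gene is said to have risen or fallen where limma's two-sided p, adjusted by Benjamini-Hochberg over 45037 probe sets, was under 0.05 at a probe set annotated to that gene alone. It was called where the difference was also at least 75% (0.807 on the log2 scale), the limit used in the study. Of 18193 genes tested, 131 were called (0.720%), of which 8 were higher (0.0440%) and 123 lower (0.676%) in 21EX. With no fold limit 938 genes passed, 543 of them higher (2.98%) and 402 lower (2.21%), 7 genes having probe sets in both directions. With each array centred on its median the split was 931 higher and 348 lower, and after repeated quantile normalization 389 and 450. At the probe set of smallest p, the rises had a median size of 0.39 and the falls of 0.63, so that the fold limit kept few of the rises. The array medians lay between 4.934 and 5.024, and the 12 cardiomyocyte markers averaged 13.79 to 13.86 in 21EX arrays and 13.78 to 13.84 in NP/Sed arrays. Depth has no counterpart on arrays, and their number limits the precision.

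Most of these calls passed the threshold only with array 21EX-2. Without it 5 genes were called, 1 higher and 4 lower, and 53 genes passed with no fold limit. The direction was kept at all 134 genes of the naming rule, most of them chosen by this same comparison. Where the groups did not overlap, leaving out 1 array could not turn it. Without NP/Sed-2 there were 38 calls, without NP/Sed-1 59 and without 21EX-3 63. Calls also turned on how the probe sets of a gene were read, since 14 genes were called at the probe set of highest mean level and 4 at the mean of a gene's probe sets. Of the 109 genes covered by the naming rule that rose or fell, Limd2 and Bclaf1 were the 2 that stayed past the threshold in the same direction under all alternatives run.

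The 8 genes called higher were the carboxypeptidase-like gene Cpxm2, the actin-binding gene Cotl1, the ketone body enzyme gene Bdh1, the helicase subunit gene Mcm6, the choline transporter-like gene Slc44a2, the interferon-induced kinase gene Eif2ak2, the LIM domain gene Limd2 and the clock-output repressor gene Nfil3. At each of the 8 probe sets all 21EX arrays lay above all NP/Sed arrays, which held for 14.2% of the 34945 probe sets of 1 gene. The 8 were chosen by their difference in this same comparison, which favours that pattern, so it is no result about them.

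**Figure D1:**
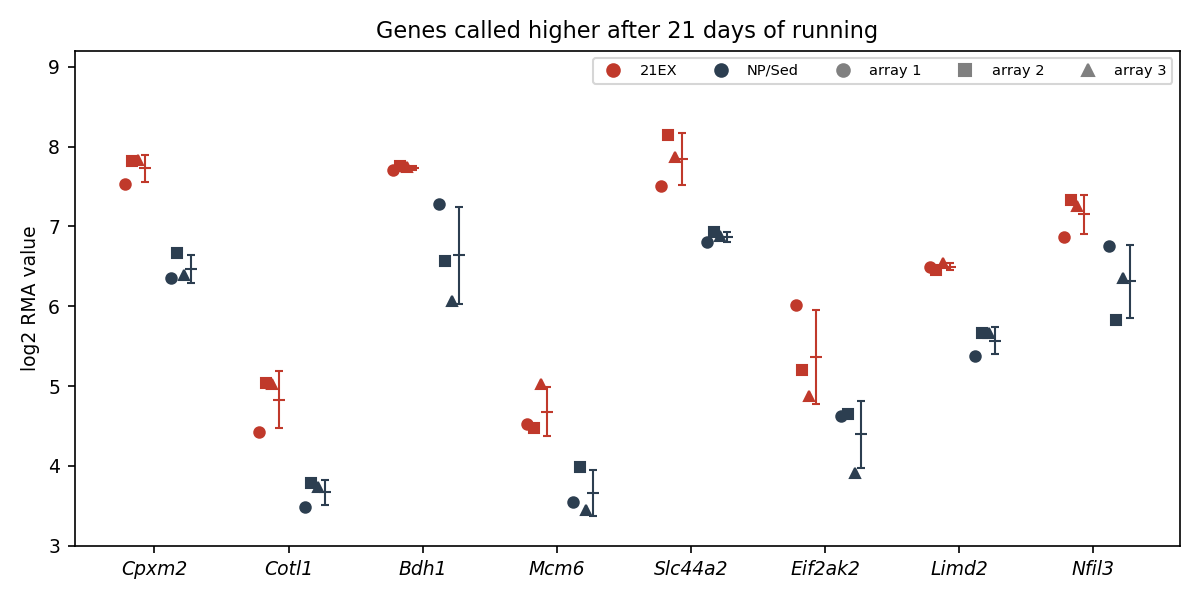
Log2 RMA values (vertical axis) of the 8 genes called higher, for the 3 arrays of 21EX (red, left) and of NP/Sed (dark, right), with symbols for the array and bars for the mean and SD. The 21EX arrays of Limd2 sit between 6.45 and 6.54, apart from NP/Sed arrays between 5.37 and 5.67, whereas the NP/Sed arrays of Bdh1 spread from 6.07 to 7.28.

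Cpxm2 had 7.53, 7.82 and 7.83 in 21EX arrays, against 6.35, 6.67 and 6.39 in NP/Sed arrays. The difference of 1.25 ± 0.22, a 2.38-fold higher level, was the largest rise called (limma adjusted p = 0.0124). Its arrays of 7EX were in between, at 7.19, 6.77 and 7.09, and 21EX minus 7EX was 0.70 (limma adjusted p = 0.673).

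Limd2 had 6.49, 6.45 and 6.54 in 21EX arrays, against 5.37, 5.66 and 5.67 in NP/Sed arrays. The groups were far apart relative to their spread, with a difference of 0.93 ± 0.11 (limma adjusted p = 0.00571). After 7 days of running it stood at 6.56, 6.23 and 6.37, nearly the level of 21EX.

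Bdh1, whose product interconverts acetoacetate and 3-hydroxybutyrate in mitochondria, had 7.71, 7.76 and 7.74 in 21EX arrays, against 7.28, 6.57 and 6.07 in NP/Sed arrays. The difference was 1.10 ± 0.24 (limma adjusted p = 0.0231), and the spread lay on the NP/Sed side (SD 0.02 in 21EX and 0.61 in NP/Sed). At its brighter probe set, with values of 11.03, 11.03 and 11.17 in 21EX and 10.58, 10.51 and 10.17 in NP/Sed, the difference was 0.65 (limma adjusted p = 0.0575). The 7EX arrays, between 7.85 and 7.97, lay above all of 21EX.

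For 3 further rises the brightest probe set of the gene gave a smaller or an opposite difference. Cotl1 had 4.42, 5.04 and 5.03 in 21EX arrays and 3.49, 3.78 and 3.73 in NP/Sed arrays at a dim probe set (1.16 ± 0.21, limma adjusted p = 0.0156). At its brightest one it had 7.73, 7.78 and 7.75 in 21EX and 7.75, 7.73 and 7.82 in NP/Sed. Eif2ak2 rose by 0.97 ± 0.23 (limma adjusted p = 0.0313) with 6.01, 5.20 and 4.87 in 21EX and 4.62, 4.65 and 3.91 in NP/Sed, but was 0.17 lower in 21EX at its brightest probe set, and it lost its call without 21EX-1 (0.64). Slc44a2 rose by 0.97 ± 0.22 (limma adjusted p = 0.0276), with a difference of 0.15 at its brightest probe set.

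Genes of DNA replication were higher in 21EX as a group. Of 33 tested, 7 rose (Mcm2, Mcm6, Mcm7, Cdt1, Pcna, Rfc4 and Tk1) and 0 fell, beside 2.98% and 2.21% of all genes. At the probe set of highest mean, 31 of 33 were above 0, beside 60.5% of all genes, the share against which such counts are read throughout, and the median difference was 0.21, beside 0.04 over all genes. In 14 of the 33 all 21EX arrays lay above all NP/Sed arrays, as they did in 18.7% of all genes.

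Mcm6 had 4.53, 4.48 and 5.03 in 21EX arrays, against 3.55, 3.99 and 3.45 in NP/Sed arrays (1.02 ± 0.21, limma adjusted p = 0.0192), and the brightest one, at 7.01, 6.95 and 7.00 in 21EX and 6.63, 6.53 and 6.51 in NP/Sed, gave 0.43 (limma adjusted p = 0.0852). Mcm2, another helicase subunit, had 6.46, 6.59 and 6.41 in 21EX and 5.95, 5.74 and 5.51 in NP/Sed (0.76 ± 0.15, limma adjusted p = 0.0170). Both groups of arrays were clear of each other at these probe sets. Mcm7 rose by 0.46 ± 0.12 (limma adjusted p = 0.0428). The sliding clamp gene Pcna rose by 0.33 ± 0.08 (limma adjusted p = 0.0386), with 9.97, 10.04 and 9.98 in 21EX and 9.80, 9.58 and 9.63 in NP/Sed. Rfc4, a subunit of the clamp loader, rose by 0.49 ± 0.11, the licensing factor gene Cdt1 by 0.37 ± 0.09 and the thymidine kinase gene Tk1 by 0.44 ± 0.10.

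Of 35 mitosis genes tested, 3 rose (Cdk1, Cks1b and Cks2) and 0 fell, beside 2.98% and 2.21% of all genes. At the brightest probe set 28 were above 0, with a median of 0.20. Cdk1 had 6.13, 6.18 and 6.19 in 21EX arrays, against 5.70, 5.32 and 5.65 in NP/Sed arrays (0.61 ± 0.14, limma adjusted p = 0.0272). Cks2 had 5.68, 5.79 and 6.27 in 21EX and 5.18, 5.05 and 5.18 in NP/Sed (0.77 ± 0.16, limma adjusted p = 0.0198). Of 13 cell cycle inhibitors, Rbl1, a member of the retinoblastoma family, rose by 0.76 ± 0.20, while Cdkn1b, which encodes p27, and Kat2b fell at a dimmer probe set and differed by 0.04 and 0.01 at their brightest ones.

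Replication genes are textbook targets of E2F factors. The promoters of Mcm6, Mcm7 and Cdk1 are shown because, among the replication and mitosis genes that rose, these had a match to an E2F word. No match was found for Mcm2, Cdt1, Pcna, Rfc4, Tk1, Cks1b and Cks2, which also rose. In the 250 bases before the start site (RefSeq, GRCm38.p6), the words TTTGGCGC, TTTCCCGC, TTTCGCGC and TTTGCCGC were searched on both strands, overlapping matches included, and are in capitals. They were found in 8 of 31 promoters of replication genes (25.8%), in 2 of 32 of mitosis genes (6.25%) and in 611 of all 32851 promoters (1.86%). A match is a description of the letters and no test of binding. The start sites are those of the RefSeq table, and that of Mcm7 lies inside the gene's RefSeq span, so the window shown for it lies almost wholly downstream of the outermost start. The sequences, 5′ to 3′ on the strand of the gene, are those of chr1:128359706-128359955 (minus strand), chr5:138171884-138172133 (minus strand) and chr10:69352913-69353162 (minus strand).
Mcm6: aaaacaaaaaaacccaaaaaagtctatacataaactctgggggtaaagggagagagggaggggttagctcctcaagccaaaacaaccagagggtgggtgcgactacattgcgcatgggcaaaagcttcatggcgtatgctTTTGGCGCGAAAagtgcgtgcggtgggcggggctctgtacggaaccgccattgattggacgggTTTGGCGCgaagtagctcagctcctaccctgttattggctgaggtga
Mcm7: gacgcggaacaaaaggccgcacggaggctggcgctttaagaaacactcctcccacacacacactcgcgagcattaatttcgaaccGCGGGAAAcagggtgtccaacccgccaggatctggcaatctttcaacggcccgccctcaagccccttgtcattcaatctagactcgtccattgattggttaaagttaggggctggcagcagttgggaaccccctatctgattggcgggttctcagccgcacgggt
Cdk1: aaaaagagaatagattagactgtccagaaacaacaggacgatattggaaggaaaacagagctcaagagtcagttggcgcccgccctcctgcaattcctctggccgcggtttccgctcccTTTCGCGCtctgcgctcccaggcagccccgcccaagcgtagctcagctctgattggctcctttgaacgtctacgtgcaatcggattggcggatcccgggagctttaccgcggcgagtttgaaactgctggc

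Set against 7EX, the mitosis genes stood lower in 21EX. In 33 of the 35 the mean of 21EX was below that of 7EX at the probe set of highest mean, as in 8118 of all 18193 genes. In 13 all 21EX arrays were below all 7EX arrays, which held for 4.57% of all genes. Several genes on the list are named by the study as raised in 7EX in these same arrays. Their presence favours lower values in 21EX, so these counts are not independent evidence. The median difference of the mitosis genes from NP/Sed was 0.20 in 21EX and 0.53 in 7EX. For the replication genes it was 0.21 in 21EX and 0.26 in 7EX. Both running groups were set against the same NP/Sed arrays. Across all genes 1 was called between 21EX and 7EX (0.00550%), the spindle-pole gene Aspm, chosen for the text after its values were seen. Aspm had 3.66, 3.81 and 3.79 in 21EX arrays, against 4.48, 4.58 and 4.66 in 7EX arrays (-0.82 ± 0.11, limma adjusted p = 0.0401), beside 3.66, 3.41 and 3.23 in NP/Sed arrays. At limma's unadjusted p under 0.05 at any of its probe sets, 2096 of 18193 genes passed between 21EX and 7EX. At the probe set of highest mean only, 1370 passed. Some genes pass an unadjusted limit with no difference at all, and more probe sets give a gene more chances. Cdk1, with 6.54, 6.96 and 7.13 in 7EX, was 0.71 lower in 21EX (limma adjusted p = 0.328).

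**Figure D2:**
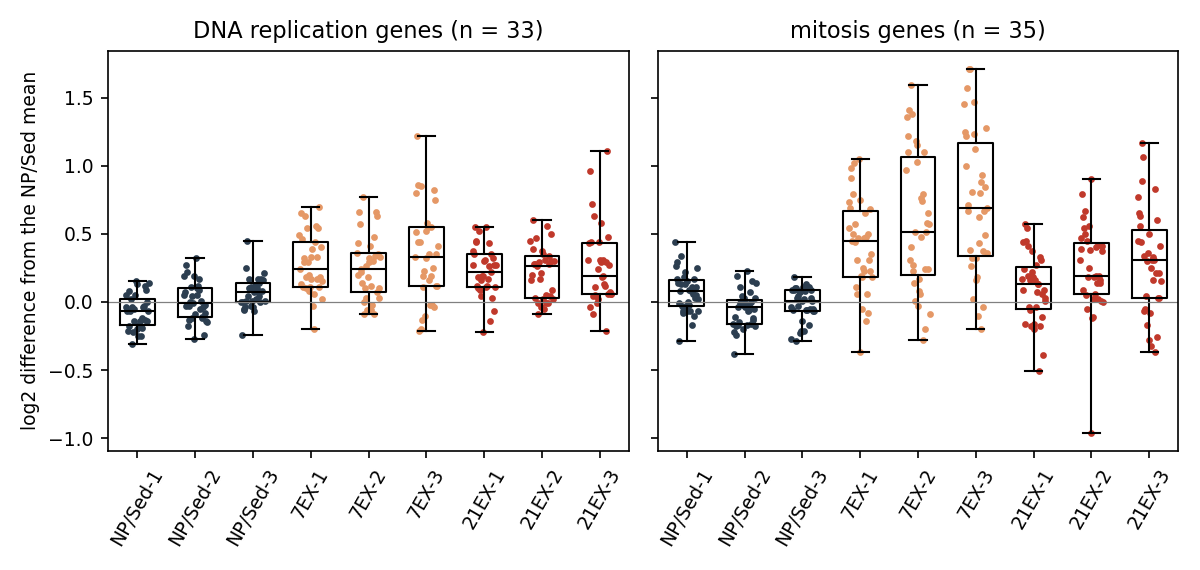
Log2 difference of each gene's probe set of highest mean from its NP/Sed mean (vertical axis) in each array of NP/Sed, 7EX and 21EX, for 33 DNA replication genes (left) and 35 mitosis genes (right). Points are genes, boxes the median and quartiles, and whiskers the full range. The medians of the mitosis genes are above 0 in all 21EX arrays and higher still in the 7EX arrays.

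Marker lists of macrophages, fibroblasts and endothelial cells had median differences above the 0.04 over all genes. So did the atrial (0.23), adipocyte (0.13), lymphatic (0.13), erythroid (0.12) and smooth muscle and pericyte (0.05) lists. Without 21EX-1 the atrial median was -0.07. The cardiomyocyte and skeletal muscle lists had medians of 0.00, and that of Schwann cells and neurons -0.07. Of 11 macrophage and monocyte markers tested, 3 rose (the lysosomal gene Cd68, the lysozyme gene Lyz2 and the complement gene C1qc), beside 2.98% of all genes. The median difference of the list was 0.39. Its mean level was 8.08, 8.14 and 8.23 in 21EX arrays and 7.96, 7.82 and 7.78 in NP/Sed arrays. Cd68 had 6.69, 6.73 and 6.91 in 21EX and 6.06, 6.32 and 6.04 in NP/Sed (0.64 ± 0.12, limma adjusted p = 0.0156). C1qc had 8.92, 8.77 and 8.92 in 21EX and 8.43, 8.41 and 8.42 in NP/Sed (0.45 ± 0.10, limma adjusted p = 0.0263). Neither gene's groups overlapped. Of 12 fibroblast markers the transcription factor gene Tcf21 rose (0.48 ± 0.10, limma adjusted p = 0.0182) and all 12 were above 0, with a median of 0.22 and a mean level of 10.10 to 10.12 in 21EX arrays and 9.79 to 10.03 in NP/Sed arrays. All 12 endothelial markers were above 0 at their brightest probe set, with a median of 0.26. Of these, 0 passed limma's adjusted threshold there and 8 an unadjusted p under 0.05. In a limma fit of the brightest probe set of each gene, 3875 of all 18193 genes passed that unadjusted limit, in either direction. Flt1, a receptor for VEGF, fell by 0.38 at a dimmer probe set. The mean level of the endothelial list was 9.31 to 9.35 in 21EX arrays and 9.01 to 9.21 in NP/Sed arrays. The lists of lymphocyte and neutrophil markers had medians of -0.03 and -0.07. The part of cell composition in the cell cycle result was not tested.

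Among 38 collagen and matrix genes, 36 were above 0, with a median of 0.24, while Cpxm2 was the single member that rose and Timp3, an inhibitor of matrix proteases, the single one that fell (-0.93 ± 0.17, limma adjusted p = 0.0156). Timp3 had 6.11, 5.86 and 6.07 in 21EX and 7.23, 6.98 and 6.60 in NP/Sed, and fell by 0.63 at its brightest probe set too. Timp1 differed by 0.34 (limma adjusted p = 0.634). Of 32 angiogenesis and oxygen-sensing genes, the lymphatic growth factor gene Vegfc (0.41 ± 0.10) and the vasodilator gene Adm (0.62 ± 0.14) rose at their brightest probe sets. Vegfa, Flt1, Notch1 and Hif1a fell at dimmer probe sets, and their differences at the brightest ones were -0.01, 0.08, 0.08 and 0.14. Over all genes 2.98% rose and 2.21% fell.

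The 123 genes called lower were represented by 137 probe sets, with a median fall of 0.98 and the deepest at -1.73. All 21EX arrays lay below all NP/Sed arrays at each of the 137, a pattern found at 9.47% of the probe sets of 1 gene. Their choice by the difference in this same comparison favours that pattern, so it is no result about them. In 126 of the 137 the lowest of the 21EX arrays was 21EX-2, and in 111 it was the lowest of all 18 arrays. In 120 the highest of all 18 arrays was an NP/Sed array, which the choice of probe sets higher in NP/Sed than in 21EX favours. The median level of the 137 was 6.23, 5.83 and 6.17 in 21EX arrays, between 6.01 and 6.46 in 7EX arrays, between 6.01 and 6.90 in the pregnant and postpartum arrays, and 7.15, 7.11 and 6.82 in NP/Sed arrays. Without 21EX-2 the median difference of the 137 was -0.81. As the groups did not overlap, leaving out 1 array could not bring any of these differences to 0. At the control probe sets of beta-actin, the 3' minus 5' difference, a measure of RNA integrity, was 1.168, 1.193 and 1.224 in 21EX arrays and 1.110, 1.358 and 1.169 in NP/Sed arrays. At those of Gapdh it was -0.041, -0.004 and -0.016 in 21EX and -0.072, 0.109 and 0.005 in NP/Sed. With the mean of the beta-actin and Gapdh differences as a covariate 121 genes were called lower.

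**Figure D3:**
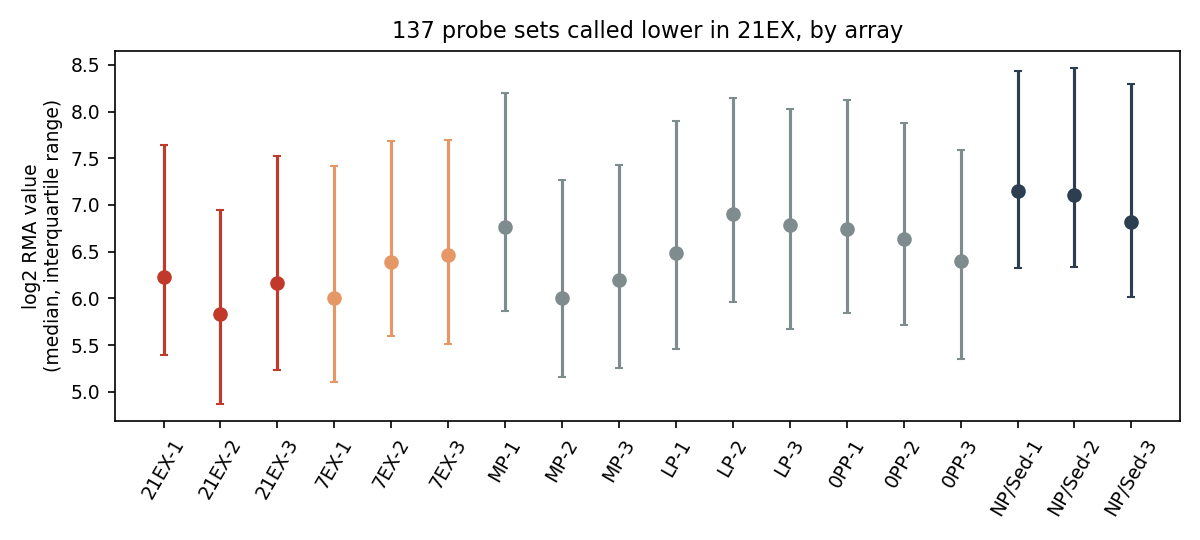
Median log2 RMA value (points, with the interquartile range as bars) of the 137 probe sets called lower in 21EX, in each of the 18 arrays. Array 21EX-2 is the lowest at 5.83, and the NP/Sed arrays, at 7.15, 7.11 and 6.82, are the highest apart from LP-2 at 6.90.

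The falls were seen at some probe sets of a gene and not at others. Of the 123 genes, 122 had several probe sets, the median number being 4, beside 1 over all genes tested. In 0 of the 122 were all probe sets called, and in 7 was the probe set of highest mean called. At the probe set of highest mean the median difference was -0.03, and 50 of the 122 genes were above 0. The 405 probe sets of these genes that were not called had a median difference of -0.10, with 34 lower and 1 higher past an adjusted p of 0.05, and a median level of 7.35, against 6.51 for the called ones. The genes called lower had a median span of 60.9 kb for the 122 with a RefSeq entry, beside 20.2 kb for 18145 genes tested. The spans were not matched for the number of probe sets, and a gene with more of them had more chances of a call. The array annotation used here does not place probe sets on transcripts, so which part of each transcript a fall belongs to was not tested.

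**Figure D4:**
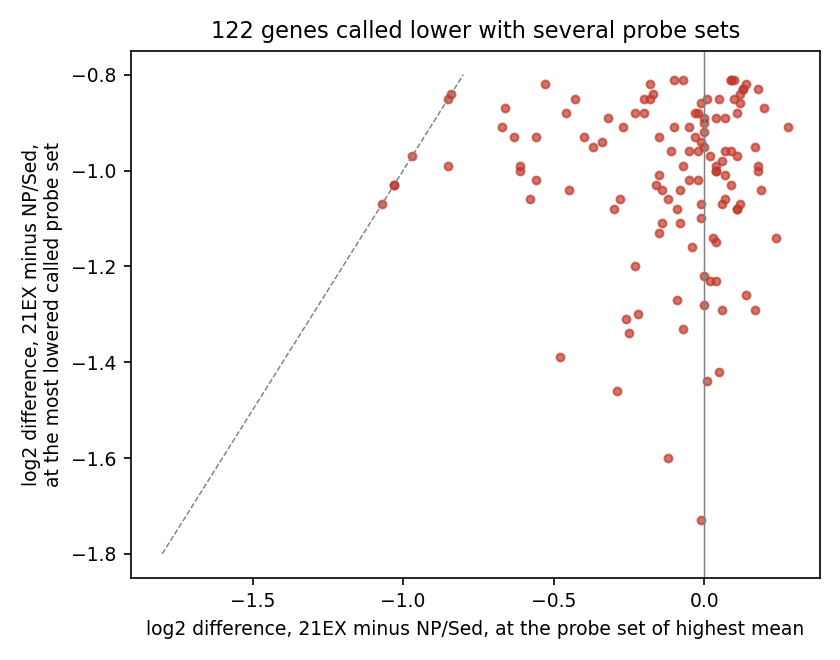
Log2 difference, 21EX minus NP/Sed, at the most lowered called probe set (vertical axis) against that at the probe set of highest mean (horizontal axis) for the 122 genes called lower with several probe sets. The dashed line marks equal differences. The 7 genes whose probe set of highest mean was called lie on or near it, and most others lie close to 0 on the horizontal axis.

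Ralgapa1, which encodes the catalytic subunit of a GTPase-activating complex for Ral, had the deepest fall. It had 4.02, 3.34 and 3.83 in 21EX arrays, against 5.83, 5.54 and 5.01 in NP/Sed arrays (-1.73 ± 0.27, limma adjusted p = 0.0119). Its brightest of 8 probe sets read 8.69, 8.75 and 8.54 in 21EX and 8.81, 8.72 and 8.47 in NP/Sed, and those groups overlapped. Kat2b, an acetyltransferase gene, had 5.64, 5.03 and 5.95 in 21EX and 7.37, 6.85 and 6.72 in NP/Sed (-1.44 ± 0.30, limma adjusted p = 0.0204), and a difference of 0.01 at its brightest probe set. The ubiquitin ligase gene Nedd4 had 9.81, 8.73 and 9.66 in 21EX and 10.94, 10.84 and 10.67 in NP/Sed (-1.42 ± 0.34, limma adjusted p = 0.0326), with 0.05 at the brightest. The others of the 24 deepest were Ccdc141, 4632427E13Rik, Zfp800, Rbm25, Birc6, Ttn, Xiap, Atrx, Prkx, Usp7 and Arid4b, with Hif1a, Ubtf, Kitl, 6820431F20Rik, Herc1, Mbnl1, Slk, Secisbp2l, Filip1 and Apc. The rule that chose the 24 required 21EX below NP/Sed without overlap, so that pattern is no result about them.

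Splicing factors were among the genes that fell. Of 46 tested, 14 fell (Srsf3, Srsf11, Rbm5, Rbm24, Rbm25, Rbm39, Mbnl1, Sf3b1, Wbp11, Hnrnpu, Luc7l2, Son, Pnn and Bclaf1) and 1 rose (Srsf4), beside 2.21% and 2.98% of all genes, while the median at the probe set of highest mean was -0.05. Several of these genes were on the list because the study names them, so the count is not independent evidence. Bclaf1, named for its product's binding to Bcl2 and also associated with splicing complexes, had 8.46, 8.26 and 8.28 in 21EX arrays, against 9.21, 9.28 and 9.05 in NP/Sed arrays at its brightest probe set (-0.85 ± 0.13, limma adjusted p = 0.0119). It had 8.20, 8.38 and 8.38 in 7EX. Rbm25 had 4.97, 4.51 and 5.14 in 21EX and 6.28, 6.42 and 5.96 in NP/Sed (-1.34 ± 0.24, limma adjusted p = 0.0155), with -0.25 at its brightest probe set. Srsf3 and Mbnl1 fell by 0.97 and 1.20, with differences of 0.02 and -0.23 at the brightest.

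Of 38 chromatin and coregulator genes, 11 fell and 1 rose (Smarca2), beside 2.21% and 2.98% of all genes. Among those that fell were Crebbp, Baz1b, Smarca5, Chd6 and Med13. At the probe set of highest mean 1 of the 38 fell and 1 rose, with a median of 0.06. Crebbp, which encodes the acetyltransferase CBP, fell by 0.91 ± 0.21 (limma adjusted p = 0.0283), and by 0.67 at its brightest probe set. Of 34 ubiquitin ligase and shuttle genes, 7 fell (Nedd4, Herc1, Herc2, Birc6, Xiap, Fbxo32 and Rad23b), beside 2.21% of all genes. The study itself names Nedd4, Birc6, Xiap and Fbxo32 as lower after 21 days of running, so the count is not independent evidence. At the probe set of highest mean 0 of the 34 fell and 24 were above 0, with a median of 0.03. The inhibitor of apoptosis genes Birc6 and Xiap fell by 1.33 and 1.30, with -0.07 and -0.22 at the brightest. Fbxo32, which encodes the muscle atrophy ligase atrogin-1, had 9.40, 8.73 and 9.37 in 21EX and 10.03, 10.16 and 9.85 in NP/Sed (-0.85 ± 0.20, limma adjusted p = 0.0337), with 0.05 at the brightest. Of 34 proteasome genes, 30 were above 0, with a median of 0.11. Psmc4 (0.28 ± 0.07) and Psmd14 (0.26 ± 0.07) rose, beside 2.98% of all genes.

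Of 22 cardiac transcription factors, 6 fell (Mef2a, Mef2c, Nfia, Nfib, Nfic and Zbtb20) and 1 rose (Meis1, 0.36 ± 0.09), beside 2.21% and 2.98% of all genes. At the brightest probe sets the list median was -0.00 and 1 of the 22 fell, with differences of -0.14 for Mef2a, -0.02 for Nfia, -0.10 for Nfib, 0.00 for Nfic and -0.17 for Zbtb20. Mef2c was the one that fell there, by 0.63 ± 0.16 (limma adjusted p = 0.0468), with 8.92, 8.30 and 8.90 in 21EX and 9.35, 9.48 and 9.18 in NP/Sed. Myocd, a coactivator of serum response factor, fell by 0.39 ± 0.09 and by 0.74 at its brightest probe set. Of 36 sarcomere and Z-disc genes, Ttn, Tnnt2, Ldb3 and Ccdc141 fell at probe sets dimmer than the gene's brightest. None of the list rose, beside 2.21% of all genes that fell and 2.98% that rose. The list median was 0.02. The brightest probe set of Ttn, which encodes titin, read 13.75, 13.57 and 13.69 in 21EX and 13.94, 13.91 and 13.93 in NP/Sed (-0.26, limma adjusted p = 0.0802), and that of the troponin T gene Tnnt2 differed by -0.01.

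The lists of energy metabolism had medians near 0. Of 46 respiratory chain and mitochondrial biogenesis genes, Ppargc1a and Opa1 fell, beside 2.21% of all genes, and 0 rose, with a median of -0.00. Opa1, a gene of mitochondrial fusion, fell by 0.55 ± 0.12, with -0.00 at its brightest probe set (limma adjusted p = 0.985). Ppargc1a, which encodes the coactivator PGC-1α, had 10.06, 9.73 and 10.01 in 21EX arrays, against 11.89, 10.50 and 10.48 in NP/Sed arrays (-1.03 ± 0.24, limma adjusted p = 0.0313). NP/Sed-1 stood far above the other arrays of its group, which were still above all of 21EX, and without it the difference was -0.56. Ppara, a nuclear receptor gene of fatty acid oxidation, had 8.94, 8.35 and 8.90 in 21EX and 9.74, 9.56 and 9.24 in NP/Sed (-0.78 ± 0.15, limma adjusted p = 0.0182). Of the 33 genes of fatty acid oxidation and ketone use, 7 were above 0, Bdh1 rose and Ppara fell, beside 2.98% and 2.21% of all genes. Ppp1r3c, a glycogen-targeting subunit gene of protein phosphatase, rose by 0.35 ± 0.09. In the growth factor list Igf2r rose by 0.29 ± 0.07, with -0.38 at its brightest probe set, while Igf1r and Rictor fell by 0.36 and 0.71, with -0.04 and -0.01 at the brightest.

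Contractile isoforms and stress genes gave mixed results. Myl1, a myosin light chain gene, rose, with 10.45, 10.21 and 10.42 in 21EX arrays, against 9.87, 9.91 and 9.87 in NP/Sed arrays (0.48 ± 0.12, limma adjusted p = 0.0391), and had 10.70, 10.87 and 10.73 in 7EX. The skeletal actin gene Acta1 had 11.71, 11.69 and 11.92 in 21EX and 11.36, 10.76 and 11.21 in NP/Sed, a difference of 0.66 ± 0.22 that missed the threshold (limma adjusted p = 0.107). The atrial light chain gene Myl4 read 10.03, 8.27 and 8.70 in 21EX and 8.40, 9.10 and 8.0 in NP/Sed at its brightest probe set, with overlapping groups. The 8 atrial markers averaged 8.57, 7.69 and 7.74 in 21EX and 7.82, 8.10 and 7.41 in NP/Sed, highest in 21EX-1 like Myl4. Gpx3, a secreted glutathione peroxidase gene, rose by 0.56 ± 0.14, and the chaperone genes Hsph1 and Pdia4 by 0.41 ± 0.11 and 0.35 ± 0.09, while Hspa8 differed by -0.02 at its brightest probe set.

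Clock genes moved in both directions. Of 20 clock genes, Nfil3 and Csnk1d rose and Rora and Tef fell, beside 2.98% and 2.21% of all genes. The list median was -0.14. At the brightest probe sets 0 clock genes fell by limma's adjusted p, and Rora differed by -0.10 and Csnk1d by 0.12. Nfil3, whose product represses at the D-box sites that Tef activates, had 6.87, 7.33 and 7.25 in 21EX arrays, against 6.75, 5.83 and 6.35 in NP/Sed arrays (0.84 ± 0.20, limma adjusted p = 0.0319). Tef had 6.17, 5.47 and 5.75 in 21EX and 6.82, 7.35 and 6.48 in NP/Sed (-1.08 ± 0.24, limma adjusted p = 0.0257), and -0.30 at its brightest probe set. Arntl, which encodes the activator BMAL1, had 8.12, 8.25 and 8.16 in 21EX and 7.58, 6.87 and 7.32 in NP/Sed without overlap, but its difference of 0.92 ± 0.28 missed the threshold (limma adjusted p = 0.0773). NP/Sed-2 had the lowest Nfil3 and Arntl and the highest Tef of its group. The time of day at which each pool was taken is not given in the sources used here, and its part in these values was not tested. Klf9, a target of the glucocorticoid receptor, fell by 0.56 ± 0.11, and by 0.37 at its brightest probe set (limma adjusted p = 0.0265). Fkbp5 differed by 0.06 at its brightest probe set and Zbtb16 by -0.85, which missed the threshold (limma adjusted p = 0.122).

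Interferon-stimulated genes were high in 1 array of 21EX. Of 35 tested, 33 were above 0 at the brightest probe set, with a median of 0.43, but 0 passed limma's adjusted threshold there. Eif2ak2 was the single one past that threshold at any probe set. At limma's unadjusted p under 0.05, 15 of the 35 passed at the brightest probe set. In a fit of such probe sets 3875 of all 18193 genes did, in either direction. In 33 of the 35 the highest of the 21EX arrays was 21EX-1, whose median difference from the NP/Sed mean was 0.86, beside 0.13 in 21EX-2 and 0.19 in 21EX-3. Ifit1, an antiviral RNA-binding protein gene, had 9.34, 7.29 and 7.30 in 21EX arrays, against 7.20, 7.01 and 6.95 in NP/Sed arrays (0.92 ± 0.48, limma adjusted p = 0.313). Ifit3 had 9.30, 7.59 and 7.67 in 21EX and 7.72, 7.24 and 6.92 in NP/Sed. Without 21EX-1 the difference of Ifit1 was 0.24 and the list median 0.16. Since each array is a pool of 2 to 3 hearts, whether 1 heart or all hearts of that pool were high was not tested.

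**Figure D5:**
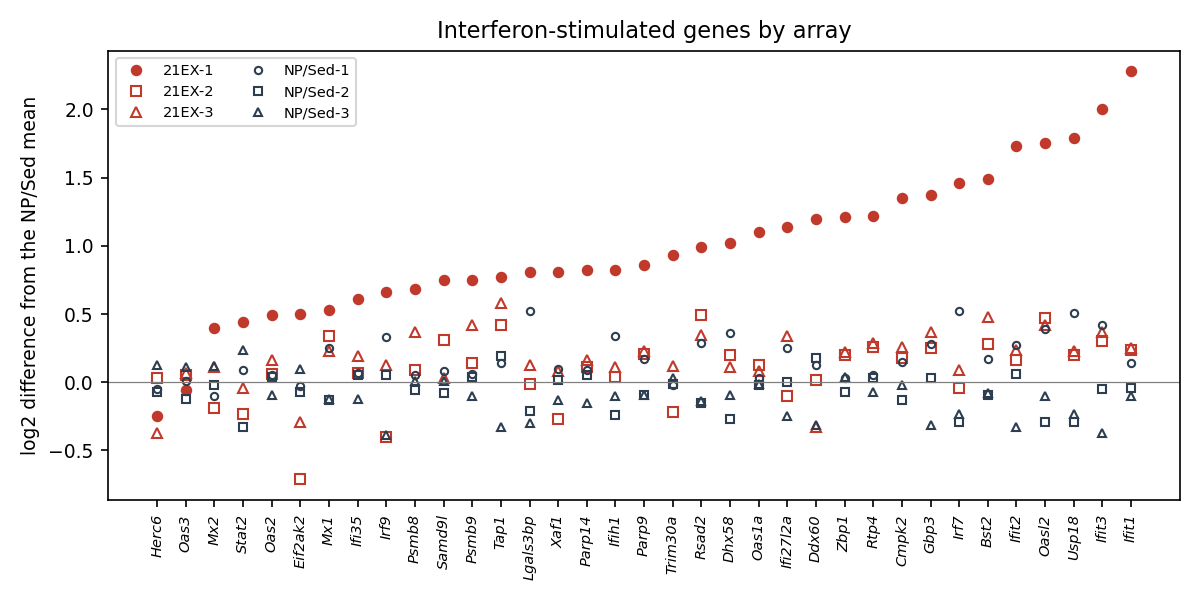
Log2 difference from the NP/Sed mean (vertical axis) of 35 interferon-stimulated genes at the probe set of highest mean, in the 3 arrays of 21EX (red) and of NP/Sed (dark), ordered by 21EX-1 (filled circles). The 21EX-1 values run far above the rest for most genes, while 21EX-2 and 21EX-3 lie close to the NP/Sed arrays.

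The promoters of Ifit1 and Ifit3 are shown because, within the list, they had the largest differences of 21EX-1 from the NP/Sed mean (2.28 for Ifit1). The interferon response word GAAANNGAAA was searched on both strands in the 250 bases before the start site and is in capitals. It was found in 10 of 29 promoters of the list (34.5%) and in 978 of all 32851 (2.98%). For Ifit3 the start site of the table lies inside the gene's RefSeq span, and the whole window is downstream of the outermost start. Both sequences are from the plus strand of chromosome 19, chr19:34640639-34640888 for Ifit1 and chr19:34583279-34583528 for Ifit3.
Ifit1: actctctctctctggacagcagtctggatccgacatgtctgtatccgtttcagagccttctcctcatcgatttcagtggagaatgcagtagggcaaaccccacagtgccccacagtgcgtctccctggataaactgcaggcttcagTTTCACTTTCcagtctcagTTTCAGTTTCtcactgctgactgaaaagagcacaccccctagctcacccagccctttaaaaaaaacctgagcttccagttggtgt
Ifit3: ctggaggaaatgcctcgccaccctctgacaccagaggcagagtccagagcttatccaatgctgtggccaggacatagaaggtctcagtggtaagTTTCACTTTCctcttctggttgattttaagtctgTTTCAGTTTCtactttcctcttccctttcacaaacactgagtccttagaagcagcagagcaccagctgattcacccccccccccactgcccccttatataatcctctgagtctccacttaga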

How the data were processed

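RNA of left ventricles was hybridised to Affymetrix whole-genome mouse arrays. The deposited values are log2 expression values that the authors made by RMA with default options in R 2.12.2 over all 18 arrays together, which subtracts background, sets the arrays to 1 distribution and gives 1 value per probe set, and with no filter. The 64 control probe sets were left out and 45037 tested. GEO's platform table names 1 gene for 34945 of them, more than 1 for 932 and lists no gene for 9160. A linear model with 6 groups was fitted with limma 3.58.1 in R 4.3.3 (12 residual and 6.45 prior degrees of freedom). The rule for named genes took all called rises, the 24 deepest called falls without overlap, genes that the study's text and its list of top genes name for 21 days of exercise, and up to 8 members of each list that rose or fell. A gene is shown at its probe set of smallest p. The members and lists were chosen with earlier results of these data known. Nothing in the labels says that the pools of a group came from separate cohorts, so p-values measure the spread between these pools. On simulated data for this comparison with 50 of 45037 probe sets changed at each size, the fit called 0 at a log2 change of 0.5, which is under the fold limit, and 49 at 1.0, and with no fold limit 31 passed at 0.5. Alternatives are in the closing section. Quantitative PCR of the study was not analysed here.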

Additional observations from a re-analysis of the deposited data

Results flagged for a closer look

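The difference between the running groups was past the threshold at 1 gene. Aspm was lower in 21EX than in 7EX by 0.82 on the log2 scale (-0.82, limma adjusted p = 0.0401), with all 3 arrays of 21EX below all 3 of 7EX. It was not called in any of the fits that left out 1 of these 6 arrays.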

How the results depend on the processing

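Of the genes called against NP/Sed, 131 in all, the count was 938 with no fold limit, 14 were called at the probe set of highest mean only, of which 11 were among the 131, and 4 at the mean of a gene's probe sets. The counts ranged between 5 and 173 when 1 array was left out, the lowest without 21EX-2 and the highest without 21EX-1. The other alternatives gave 111 to 189 calls, with 189 under Cyber-T. Without a fold limit 398 genes passed in a fit of the 2 groups only, 1579 with a mean log2 value of at least 5, 585 at the mean of the probe sets and 614 with the replicate number as a block, and 53 to 640 with 1 array left out. The numbers are not taken to pair the arrays, since deviations of same-numbered arrays correlated at 0.098, -0.149 and 0.035, and the block gave 111 calls, 110 of them among the 131. Between 21EX and 7EX 1 gene was called with an intensity trend, with the block and at the probe set of highest mean. In the fit of the 2 groups only, with a mean of at least 5, quantile normalization repeated, arrays centred on their median, probe sets of a gene averaged or the 3' minus 5' covariate 0 were called by limma, and 0 (lowest and highest) with any 1 of the 6 arrays left out, beside 1240 to 2236 at an unadjusted p under 0.05 in the first kind and 1713 to 2383 with an array left out. At the probe set of highest mean the direction turned for 36 of the 134 genes of the naming rule, and of those named in the text for Cotl1 (-0.02), Eif2ak2 (-0.17), Kat2b (0.01), Nedd4 (0.05), Atrx (0.06), Prkx (0.17), Usp7 (0.0018), Hif1a (0.14), Ubtf (0.04), Kitl (0.02), Herc1 (0.0009), Secisbp2l (0.04), Filip1 (0.03), Apc (0.24), Myl4 (0.50), Fkbp5 (0.06), Fbxo32 (0.05), Srsf3 (0.02), Wbp11 (0.09), Hspa8 (-0.02), Herc2 (0.29), Rad23b (0.07), Cdkn1b (0.04), Ldb3 (0.04), Igf2r (-0.38), Flt1 (0.08), Notch1 (0.08), Med13 (0.08), Baz1b (0.06) and Nfic (0.0029), and at the mean of the probe sets for Myl4 (0.17) and Igf2r (-0.05). No direction turned under the other alternatives among the 134 genes, though leaving out 1 array could not turn it where the groups did not overlap. Of the 109 past the threshold, 104 lost it without 21EX-2 and 71 at the probe set of highest mean. The cause was not tested.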
